A study of Mus musculus with 2 samples.

Results

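Defb1, Marcks, Igfbp7 and Sez6l are 4 of the 31053 genes counted in single-cell RNA libraries of mouse pancreatic islets. They were chosen because their level was lower in the β cells of multiparous mice than in those of virgin mice, with hormone genes left out. Their ratio in β cells is therefore what chose them and is given below as a description. Their levels in other islet cells and their relation to one another were not used in that choice. Their distribution over single β cells was not used directly. Differences between the libraries in that distribution, or in parts of the β cells, restate the counts that chose the genes.

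The islets came from wild type female C57BL/6J mice. Multipara mice entered breeding at 9 weeks of age, delivered 3 litters in a row and gave islets 3 weeks after the final litter, and virgin littermates of the same age were the control. Islets of both groups were held for 30 min in medium with serum, dispersed with 0.25% trypsin and made into 1 library per group with the 10x Chromium 3′ chemistry, in which each RNA molecule receives a unique molecular identifier (UMI) at its 3′ end. Each group held 2 or more mice, whose exact number is not given in the sources used here and which the files do not tell apart, so the spread between animals was not measured, no difference could be tested, and every interval below is a 95% interval that covers counting error only.

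The proteins have separate roles. Defb1 encodes beta-defensin 1, a small cationic peptide that epithelia secrete and that acts against microbes. Marcks encodes a myristoylated protein of the inner plasma membrane that holds the phospholipid PIP2 and lets it go when protein kinase C phosphorylates it or calmodulin binds it. Igfbp7 encodes a secreted glycoprotein related to the insulin-like growth factor (IGF) binding proteins and known from vessel walls, and Sez6l encodes a membrane protein with CUB and sushi domains that beta-secretases cut.

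On GRCm38, Defb1 lies on the plus strand at chr8:21776599-21795185, Marcks on the minus strand at chr10:37133375-37138920, Igfbp7 on the minus strand at chr5:77349240-77408041 and Sez6l on the minus strand at chr5:112419151-112577185. Igfbp7 overlaps Polr2b on the other strand, which held 655 UMIs in virgin and 545 in multipara β cells, far fewer than Igfbp7 itself. RefSeq promoters of the same build (GRCm38.p6) matched 2 of the 4 genes, and their 250 bases before the transcription start are shown, 5′ to 3′ on the strand of the gene, because both genes were lower in the same cells. Capitals mark GGGCGG, the GC box letters, or their complement CCGCCC.
Igfbp7, chr5:77408046-77408295: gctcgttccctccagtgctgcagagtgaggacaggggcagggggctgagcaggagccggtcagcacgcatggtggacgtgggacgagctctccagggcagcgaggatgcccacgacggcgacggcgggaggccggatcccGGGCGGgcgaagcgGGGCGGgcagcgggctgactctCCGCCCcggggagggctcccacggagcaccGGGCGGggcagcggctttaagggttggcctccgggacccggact
Sez6l, chr5:112577199-112577448: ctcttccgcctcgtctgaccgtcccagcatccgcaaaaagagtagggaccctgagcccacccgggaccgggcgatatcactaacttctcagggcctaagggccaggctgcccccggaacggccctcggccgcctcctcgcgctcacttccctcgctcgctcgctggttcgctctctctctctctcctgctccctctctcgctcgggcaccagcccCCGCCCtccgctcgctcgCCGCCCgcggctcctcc
Both were rich in G and C, at 74% for Igfbp7 and 69.6% for Sez6l, against a median of 52% over 27025 mouse promoters, and each held 26 CpG sites. The Igfbp7 window held GGGCGG 3 times forward and 1 time reversed, and the Sez6l window 2 times reversed. GGGCGG stood on either strand of 32.9% of all promoters of that length, so its presence sets neither gene apart. Neither window held TATAAA, present in 13.0% of promoters, or CCAAT, present in 34.5%.

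After the filter of the study and removal of called doublets, 4330 virgin and 3330 multipara cells remained, with medians of 17178.5 and 18292.5 UMIs. Cells were gated on the share of their UMIs held by hormone genes or on marker UMIs. The β cells, in which Ins1 and Ins2 together held at least 5% of UMIs and no other hormone did, numbered 1842 in virgin and 1688 in multipara. Within them Mafa stood at 324 and 338 CPM (counts scaled to 1e+06 UMIs) and Ucn3, a marker of mature β cells, at 235 and 255 CPM, against at most 14.3 CPM for Mafa and 6.30 CPM for Ucn3 in α, δ or PP cells. In α cells Irx2 stood at 104 and 94.0 CPM, against at most 11.6 CPM in β, δ or PP cells. In δ cells the factor Hhex stood at 355 and 364 CPM, and in PP cells Pyy at 122249 and 121222 CPM.

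The gate let more shallow droplets into the multipara β cells. Of its β cells 22.2% had fewer than 10000 UMIs, against 14.1% in virgin, and the summed level of 7 endothelial markers, all detected in both libraries, was 32.4 CPM in multipara and 10.2 CPM in virgin β cells. The 6 pericyte markers summed to 7.90 and 1.34 CPM. In the β cells with at least 10000 UMIs and at least 10% of UMIs from insulin, called deep β cells here, the endothelial markers summed to 5.74 CPM in multipara and 7.30 CPM in virgin, and no cell held 5 or more endothelial UMIs. These deep β cells numbered 1582 in virgin and 1314 in multipara and carried 98.2% and 97.7% of all β cell UMIs, and the ratios of the 4 genes and the counts of gene lists are given in them too. They were set apart after the data were seen. The libraries shared 7 cell barcodes, none of them gated as a β cell in both.

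In β cells all 4 genes were lower in multipara. Defb1 had 5860 UMIs in virgin β cells and 2720 in multipara, or 112 CPM (109 to 115) and 58.2 CPM (56.0 to 60.4), a 1.93-fold lower level. Its log2 ratio of multipara over virgin was -0.95 (-1.01 to -0.88), and in deep β cells -0.93. Marcks had 3421 and 1884 UMIs, or 65.6 and 40.3 CPM, with a log2 ratio of -0.70 (-0.78 to -0.62), and -0.73 in deep β cells. The membrane protein gene Sez6l was close to Marcks in level and in ratio, with 3312 and 1948 UMIs, 63.5 and 41.7 CPM and a log2 ratio of -0.61 (-0.69 to -0.53), and -0.59 in deep β cells. These were summed counts over many cells, and for these 3 genes the intervals of the libraries lay far apart.

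Igfbp7 had 6533 UMIs in virgin and 4095 in multipara β cells, or 125 and 87.6 CPM, and a log2 ratio of -0.51 (-0.57 to -0.46). This value depended on which droplets counted as β cells. When each cell was weighted equally the log2 ratio was 0.35, with cells thinned to 1500 UMIs it was 0.50 and with the insulin gate lowered to 2% it was 0.50, all higher in multipara. Igfbp7 was abundant in endothelial cells, and 34 multipara β cells with 5 or more endothelial UMIs, 2.01% of the total, held 460 of its UMIs (11.2%), against 14 cells and 78 UMIs (1.19%) in virgin. With the cells that held any endothelial, pericyte or fibroblast marker UMI removed, the same 3 settings gave -0.67, -0.78 and -0.69. In deep β cells Igfbp7 stood at 123 CPM in virgin and 74.6 CPM in multipara, a log2 ratio of -0.72 (-0.78 to -0.66), so there it was lower by about as much as Marcks.

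Set against the other genes, 1249 had a mean of at least 50 CPM in β cells, and 13 of them (1.04%) were lower in multipara by 1.5-fold or more, 3 of the 4 genes among them, while 14 (1.12%) were higher. With TMM scaling, which shifts every log2 ratio up by 0.07, 9 (0.721%) were lower and 18 (1.44%) higher. Sez6l then stood at -0.54, within 1.5-fold, as it did with median-of-ratios scaling, and Defb1 (-0.88) and Marcks (-0.63) were past it under both. Igfbp7, at 1.43-fold, was just outside. In deep β cells 14 of 1236 genes (1.13%) were lower by that much, all 4 genes among them, with Sez6l (1.51-fold) just inside, and 9 (0.728%) were higher. From the lowest ratio upwards Defb1 was number 7, Marcks 8, Sez6l 11 and Igfbp7 19 of 1249. The genes just below Defb1 were the hormone gene Ppy (-1.22), Rbp4 (-1.21) and the cGMP phosphodiesterase gene Pde5a (-1.10), and those just above Igfbp7 were Selenop (-0.51), Sphkap (-0.50) and Tbl1x (-0.49). Lower still than Ppy stood Igkc (-4.93), Pyy (-1.57) and Sst (-1.25), and Gcg (-0.67) and Ttr (-0.63) lay between Marcks and Sez6l. The ranks thus count hormone genes and markers of other islet cells along with genes of β cells. The median log2 ratio was -0.08 over 14382 genes with at least 10 UMIs in β cells and -0.11 over 13945 in deep β cells, which leaves the ratios of the 4 genes relative to it between -0.87 and -0.44, and between -0.82 and -0.48 in deep β cells. As the genes were chosen on this contrast, their place in it is a description.

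**Figure D1:**
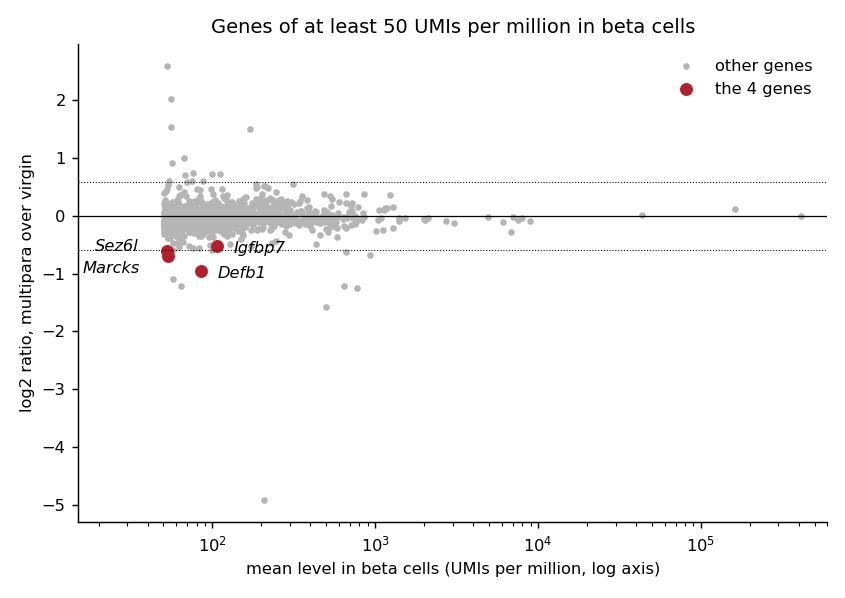
Log2 ratio of multipara over virgin (vertical axis) against the mean level in β cells of both libraries (horizontal log axis, CPM) for genes of at least 50 CPM. Dotted lines mark 1.5-fold, and Defb1, Marcks and Sez6l lie below the lower line at -0.95, -0.70 and -0.61, while Igfbp7 lies just above it at -0.51.

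The level that RNA of other cells could add in β cell droplets was computed for each gene. This computed level can overstate what other cells brought, since for some genes of the lists below it passed the measured level. The share of each other cell type's marker level that was found in β cells, multiplied by the level of the gene in that type and summed over endothelial cells, pericytes, macrophages, α, δ and PP cells, came to 0.91 of the 112 CPM of Defb1 in virgin and 0.40 of 58.2 CPM in multipara. For Sez6l it was 1.46 of 63.5 and 0.56 of 41.7 CPM, and for Marcks 3.23 of 65.6 and 3.1 of 40.3 CPM. Igfbp7 had the most, 11.6 CPM (9.24% of its level) in virgin and 20.5 CPM (23.4%) in multipara, which came down to 7.91% and 6.56% in deep β cells. Markers of δ cells summed to 1186 CPM in virgin and 501 CPM in multipara β cells, and those of α and PP cells were lower in multipara too, at 1956 and 1246 CPM and at 1655 and 641 CPM.

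Across the islet the 4 genes had distinct patterns. As 3′ counts of different genes are not levels per length, the order is given for each gene by itself. It is an order of CPM, a share of all UMIs, so a gene reads lower where hormones hold more of them. Insulin held a median of 56.0% of UMIs in virgin β cells. In virgin δ cells the δ markers, Sst included, summed to 192632 CPM. Levels with hormone UMIs left out were not compared between cell types. Defb1 was a gene of β and δ cells. In virgin islets, with hormone UMIs in the total, both had the same CPM within counting error. The β cells stood at 112 CPM (109 to 115) and the δ cells at 112 CPM (99.6 to 126). In multipara islets δ cells stood at 133 CPM (119 to 148) and β cells at 58.2 CPM, with intervals that did not overlap. PP cells held 27.1 and 27.6 CPM and α cells 24.4 and 15 CPM. In endothelial cells 7 and 3 UMIs were found, and in macrophages 3 and 0, which in multipara allows a level of up to 4.68 CPM by a limit of 3 counts, the limit used for every count of 0 here.

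Among endocrine cells Marcks had its lowest CPM in β cells in both libraries, an order that also depends on the hormone share of each cell type. Fibroblasts, 59 in virgin and 6 in multipara, held the highest level, 659 and 985 CPM. Macrophages (428 and 318 CPM) and endothelial cells (407 and 381 CPM) came next, with intervals that overlapped, followed by pericytes at 326 and 178 CPM. B cells were below β cells in virgin, at 37.9 CPM from 46 UMIs, and virgin T cells lower still at 16.6 CPM from 7 UMIs. The other endocrine cells lay between pericytes and β cells, with 131 and 101 CPM in α cells, 126 and 114 CPM in δ cells and 87.3 and 96.3 CPM in PP cells. Intervals of α and δ cells overlapped in each library.

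Igfbp7 spanned the widest range. Endothelial cells (8573 and 8213 CPM) and pericytes (5557 and 4543 CPM) were high in both libraries. The 59 virgin fibroblasts held 6937 CPM and the 6 multipara ones 9976 CPM. Among endocrine cells δ cells were highest at 583 and 483 CPM, followed by α cells at 351 and 222 CPM, β cells, and PP cells at 98.5 and 71.6 CPM, with no overlap of intervals between neighbours. The order of β and PP cells did not hold in cleaner sets, where deep β cells had 123 CPM and 74.6 CPM (72.1 to 77.1) and PP cells with no stromal marker UMI and at least 5000 UMIs had 134 CPM (112 to 159) and 91.3 CPM (75.4 to 110), with intervals that overlapped in each library. Macrophages held 3 and 2 UMIs, or 5.89 and 3.12 CPM.

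Sez6l was mainly a gene of δ and β cells. δ cells held 223 CPM in virgin and 205 CPM in multipara, above the 63.5 and 41.7 CPM of β cells. PP cells held 16.5 and 11.6 CPM and endothelial cells 15.2 and 22 CPM from 21 and 32 UMIs, and these neighbours did not differ beyond their intervals. The α cells held 3.56 and 1.47 CPM. No Sez6l UMI was found in 177 virgin B cells or 59 virgin fibroblasts, which allows up to 2.47 and 6.72 CPM.

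**Figure D2:**
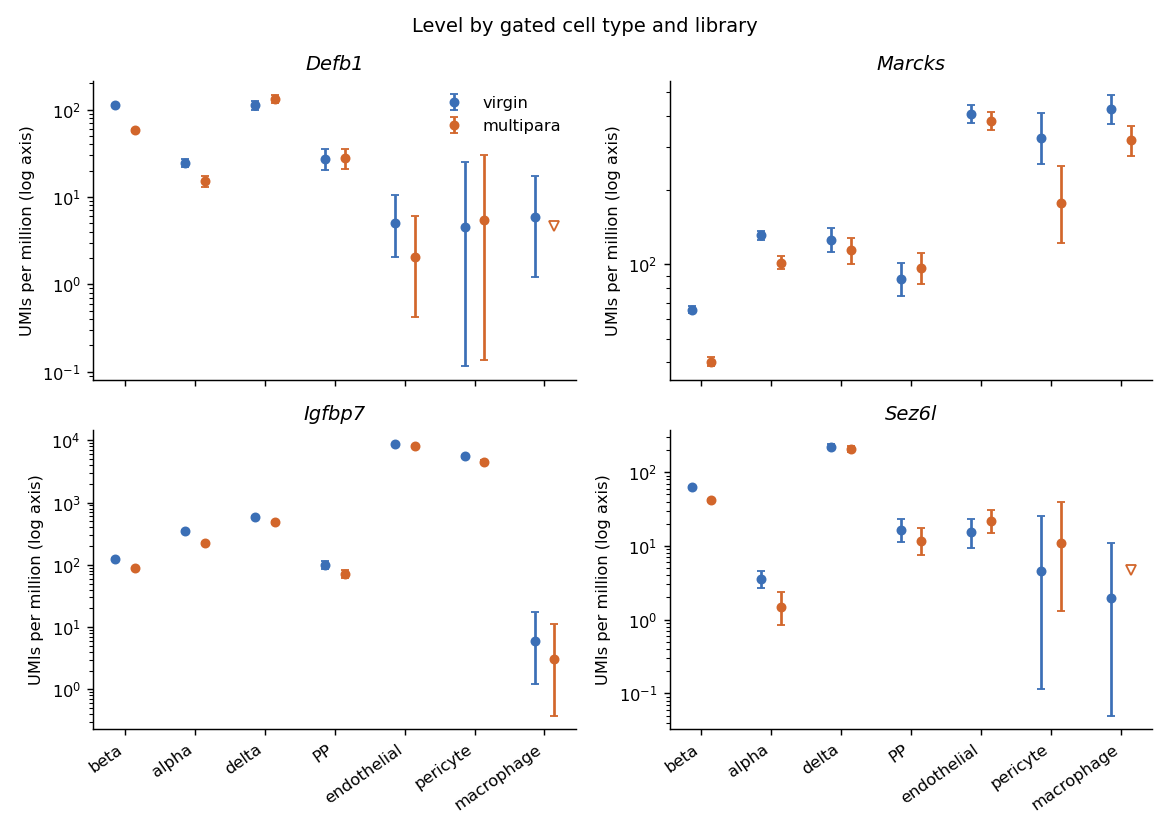
Level of each gene (vertical log axis, CPM of the summed cells) by gated cell type, virgin in blue and multipara in orange. Points are sums over the cells of 1 library with 95% Poisson intervals, and open triangles mark 0 UMIs and stand at the level of 3 counts. Defb1 is at 112 CPM in both β and δ cells of virgin islets and at 58.2 and 133 CPM in multipara.

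Outside β cells the 4 genes did not all differ in the same direction. The α cells came nearest to the β cells. There the log2 ratio of Igfbp7 was -0.66 (-0.73 to -0.59), of Defb1 -0.70 (-0.97 to -0.43) from 404 and 164 UMIs, and of Marcks -0.37 (-0.48 to -0.27). Igfbp7 was number 5 from the lowest of 1652 genes of at least 50 CPM in α cells and Marcks number 31, in a cell type where 7 genes (0.424%) were lower by 1.5-fold. In α cells with at least 5000 UMIs and no endothelial, pericyte or fibroblast UMI, the ratios were -0.62 for Igfbp7, -0.71 for Defb1 and -0.44 for Marcks. The few Sez6l UMIs of α cells, 59 and 16, gave -1.28 (-2.18 to -0.46) in all α cells and -0.43 (-1.48 to 0.56) in this cleaner set.

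In δ cells, where Defb1 and Sez6l reached or passed their β cell level in CPM, neither was lower by a similar amount. The Defb1 log2 ratio in δ cells was 0.25 (0.01 to 0.48) from 295 and 316 UMIs, and in cells of at least 5000 UMIs with no stromal marker UMI it was 0.14 (-0.14 to 0.43). Sez6l had -0.12 (-0.30 to 0.05), Marcks -0.14 (-0.38 to 0.09) and Igfbp7 -0.27 (-0.38 to -0.16). All 4 intervals lay above that of the same gene in β cells. The β cell ratio chose the genes and the δ cell ratio did not, so this comparison is a description. Of 2488 genes of at least 50 CPM in δ cells 0.362% were lower by 1.5-fold and 0.844% higher, and none of the 4 genes was past that fold there.

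In the 86 PP cells of each library Marcks was at 0.14 (-0.16 to 0.45), Defb1 at 0.02 (-0.55 to 0.60) and Igfbp7 at -0.46 (-0.78 to -0.14), and the 31 and 24 UMIs of Sez6l gave -0.51 (-1.34 to 0.31). In PP cells of at least 5000 UMIs with no stromal marker UMI, Defb1 had -0.44 (-1.12 to 0.24) and Sez6l 0.14 (-0.82 to 1.12), so neither direction held there. Of 1337 genes in PP cells 0.673% were lower by 1.5-fold and 0.374% higher. In endothelial cells, which hold most Igfbp7, its log2 ratio was -0.06 (-0.10 to -0.03), and that of Marcks was -0.10 (-0.27 to 0.08), where 1.26% of 3336 genes were lower by 1.5-fold and 1.44% higher. Pericytes had -0.29 for Igfbp7 and -0.87 (-1.51 to -0.26) for Marcks, the latter from 72 and 33 UMIs. Marcks was also lower in macrophages, at -0.43 (-0.71 to -0.14), where 12.9% of 2063 genes were lower by 1.5-fold and 6.30% higher.

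Within β cells the lower level was not limited to cells of a given depth, insulin share or state. β cells of both libraries were split into depth quartiles at 20092, 30444 and 37495 UMIs. From the second quartile up, every gene was lower in multipara, with log2 ratios of -0.96 to -0.69 for Defb1, -0.70 to -0.64 for Marcks, -0.79 to -0.59 for Igfbp7 and -0.66 to -0.34 for Sez6l. In the shallowest quartile Defb1 (-1.20), Sez6l (-0.82) and Marcks (-0.48) were lower as well, whereas Igfbp7 was at 205 CPM in virgin and 330 CPM in multipara, a log2 ratio of 0.69 (0.54 to 0.84). There the endothelial markers summed to 56.9 CPM in virgin and 468 CPM in multipara, and droplets with 5 or more endothelial UMIs held 51.6% of the multipara Igfbp7 UMIs.

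All further splits used deep β cells. On either side of the median insulin share, 57.8% of UMIs, Defb1 had log2 ratios of -0.87 and -0.89, Marcks -0.65 and -0.74, Igfbp7 -0.72 and -0.67 and Sez6l -0.50 and -0.55. Levels of all 4 genes were lower in cells with the higher insulin share in each library, as with Defb1 at 136 against 88.4 CPM in virgin and 74.3 against 47.6 CPM in multipara. Insulin made up over 50% of the UMIs of most cells, so a CPM falls when the insulin share is high. The median insulin share of β cells was 56.0% in virgin and 56.8% in multipara.

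Nupr1, a stress-induced regulator of transcription, had a UMI in 443 of 1582 virgin and 773 of 1314 multipara cells at equal depth. The genes were lower in multipara in cells with Nupr1 (Defb1 -1.0, Marcks -0.69, Igfbp7 -0.64, Sez6l -0.41) and without it (-0.94, -0.79, -0.54 and -0.83 in the same order). Sez6l showed the widest gap between these sets, since its level was alike in virgin cells with and without Nupr1 (60.4 and 63.4 CPM) but not in multipara cells (45.6 and 35.7 CPM). Igfbp7 was lower in cells with Nupr1 in both libraries, at 98.9 against 132 CPM in virgin and 63.4 against 90.9 CPM in multipara.

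Fmo1, a flavin monooxygenase gene, had a UMI in 233 virgin and 557 multipara cells. Defb1 was lower in Fmo1-positive cells in each library, at 81.9 against 117 CPM in virgin and 40.5 against 72.8 CPM in multipara, and Sez6l likewise at 47 against 65.5 CPM and 30.4 against 50.4 CPM. In cells without Fmo1 the log2 ratio was -0.69 (-0.76 to -0.61) for Defb1 and -0.38 (-0.47 to -0.28) for Sez6l, smaller than in all deep β cells, while Marcks (-0.66) and Igfbp7 (-0.72) moved little. In cells with Fmo1 it was -1.02 for Defb1, -0.60 for Marcks, -0.56 for Igfbp7 and -0.63 for Sez6l. Outside the deep set, Fmo1 was also called at 1500 UMIs in gated β cells. Cells without it then had -0.90 for Defb1 and -0.56 for Sez6l. Cells with it had -0.69 (-1.06 to -0.31) for Defb1, from 88 and 196 UMIs, and -0.71 (-1.14 to -0.27) for Sez6l. For Defb1 the order of cells with and without Fmo1 was then the reverse of that in deep β cells. The depth of the call and the set of cells both differed, and which of them moved these values was not tested. Cells with a UMI of Lrrc55, Rerg or Matn2 and cells without one had ratios from -0.99 to -0.51 over the 4 genes.

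**Figure D3:**
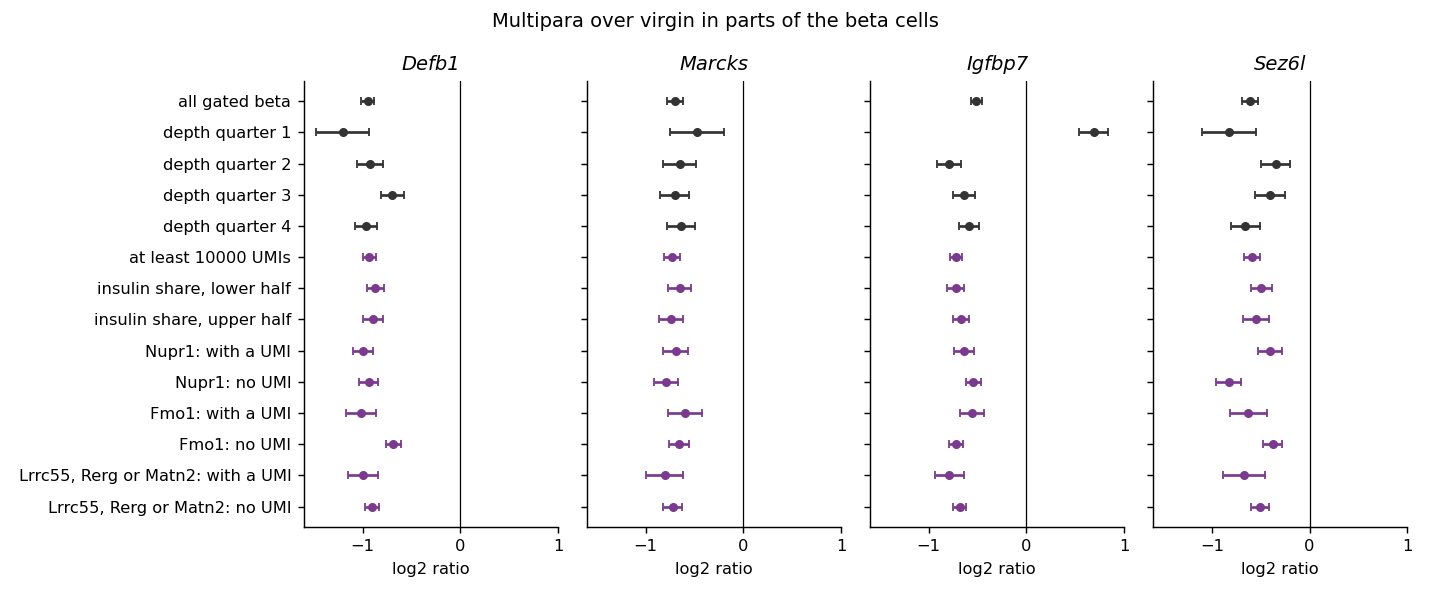
Log2 ratio of multipara over virgin (horizontal axis) with 95% counting intervals for each gene in all gated β cells, in quartiles of depth (1 is the shallowest) and, in purple, in deep β cells and parts of them. All points lie left of 0 except Igfbp7 in the shallowest quartile, at 0.69.

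To compare single cells at equal depth, deep β cells were thinned to 10000 UMIs each. A UMI of Defb1 was then found in 59.1% (56.6 to 61.5%) of virgin and 38% (35.3 to 40.7%) of multipara cells. For Marcks the shares were 44.9% and 33.3%, for Igfbp7 66.1% and 49.3% and for Sez6l 46.9% and 34.2%. The exact binomial intervals, which take cells of 1 library as units, did not overlap for any of them. Both the share of cells and the number per positive cell were lower. At equal depth a lower summed level, on which the genes were chosen, tends to lower both, so these values are a description. Positive cells held on average 1.95 and 1.63 UMIs of Defb1, 1.97 and 1.60 of Igfbp7, 1.5 and 1.25 of Marcks and 1.46 and 1.33 of Sez6l. Cells with 3 or more UMIs went from 14.2% to 5.48% for Defb1 and from 16.6% to 6.70% for Igfbp7.

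Without thinning, the shares over all gated β cells were 76.3% and 52.4% for Defb1, 73.1% and 56.8% for Marcks, 86.1% and 71.3% for Igfbp7 and 73.8% and 56.9% for Sez6l. Thinned to the 1500 UMIs that most gated β cells reach, which left out 85 virgin and 149 multipara cells, they were 17.4% and 9.68%, 9.85% and 7.28%, 18.1% and 12.2%, and 10.5% and 6.17%. As a measure of free RNA, macrophages, with medians of 6506 and 7336 UMIs against 29804 and 31225 in β cells, had a Defb1 UMI in 3 of 73 virgin cells (4.11%) and 0 of 85 multipara cells, which by the limit of 3 counts allows up to 3.53% of cells with a UMI. A Sez6l UMI was in 1 of 73 and 0 of 85 macrophages, and an Igfbp7 UMI in 3 of 73 and 2 of 85. Thinned to 1500 UMIs, no more than 1 of 65 virgin and 1 of 85 multipara macrophages held each of these 3 genes. Marcks had a UMI in 72.6% and 77.6% of macrophages, which therefore give no background for it. Sez6l had a UMI in 2.46% of 895 virgin and 1.23% of 569 multipara α cells at 10000 UMIs.

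Defb1 was spread over β cells less evenly than Marcks or Sez6l. Its variance over cells was 1.66 times its mean in virgin and 1.61 times in multipara deep β cells at 10000 UMIs, against 1.23 and 1.04 for Marcks, 1.19 and 1.20 for Sez6l and 1.45 and 1.42 for Igfbp7. With its mean, a Poisson distribution would leave 31.5% of virgin cells without Defb1, and 40.9% were without it. In δ cells at the same depth the share with Defb1 was 50.4% in 133 virgin and 50.4% in 129 multipara cells, and positive cells held 1.90 and 2.68 UMIs.

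**Figure D4:**
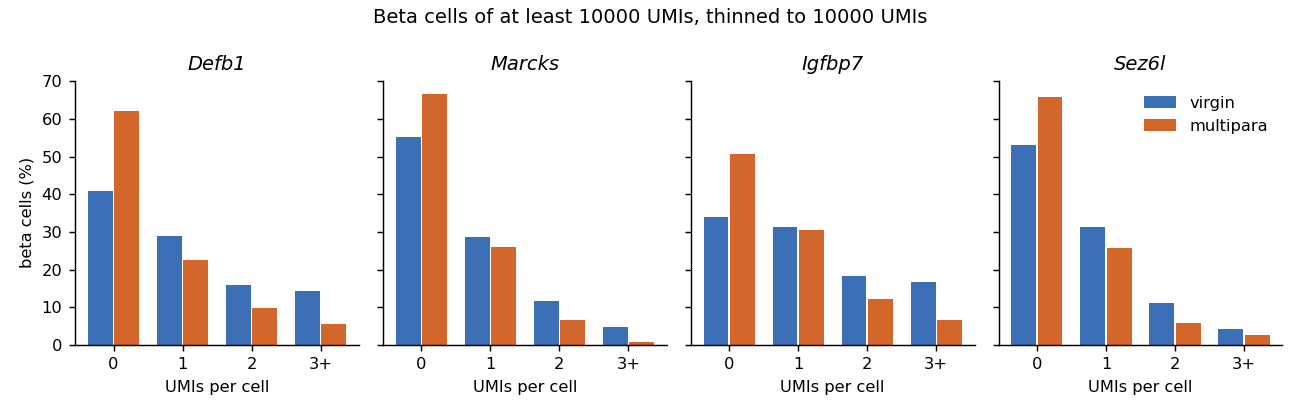
Share of deep β cells (vertical axis, percent) with 0, 1, 2 or 3 and more UMIs of each gene after every cell was thinned to 10000 UMIs, virgin in blue and multipara in orange. Cells at 0 rise from 40.9% to 62.0% for Defb1 and from 33.9% to 50.7% for Igfbp7.

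Detection of the 4 genes was then compared within single cells. Spearman correlations over deep β cells at 10000 UMIs were above 0 for all 6 pairs in both libraries but at most 0.13. Defb1 and Sez6l had 0.13 in virgin and 0.08 in multipara, Defb1 and Igfbp7 0.11 and 0.07, Igfbp7 and Sez6l 0.10 and 0.06, Marcks and Igfbp7 0.06 and 0.03, Marcks and Sez6l 0.03 and 0.08, and Defb1 and Marcks 0.02 and 0.02, over 1582 and 1314 cells that share a library. Correlations this weak in sparse counts are no finding. All 4 genes were detected in 162 virgin cells (10.2%) and 40 multipara cells (3.04%), where the product of the 4 shares gives 8.23% and 2.13%. None was detected in 91 (5.75%) and 216 (16.4%), where the product gives 4.06% and 13.8%.

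**Figure D5:**
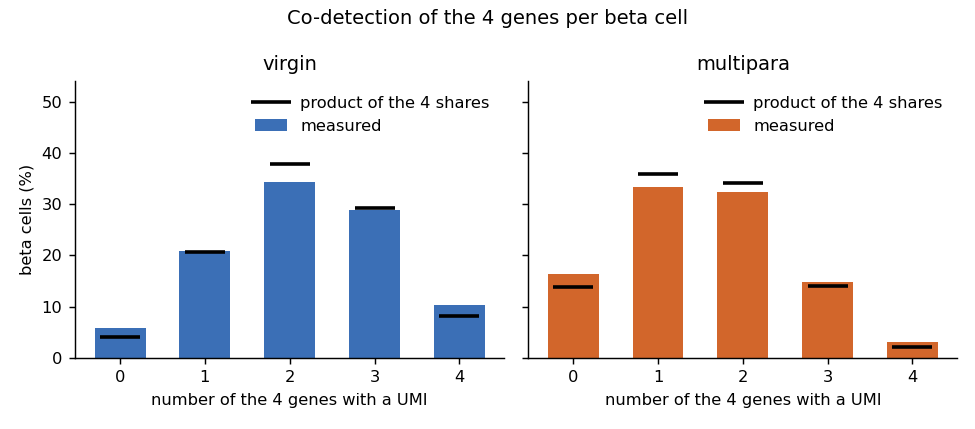
Share of deep β cells at 10000 UMIs (vertical axis, percent) by how many of the 4 genes had a UMI (horizontal axis), with black bars for the product of the separate shares. Cells with none are 5.75% in virgin and 16.4% in multipara.

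Partners of each member over deep β cells were ordered by the smaller of the correlations in the libraries, as a description of cells that share a library. Of 5228 genes compared, the chromogranin gene Chga was the first for Igfbp7, with a correlation of 0.27 in virgin and 0.28 in multipara, ahead of the tetraspanin genes Cd81 (0.29 and 0.22) and Tspan8 (0.23 and 0.20). From the lowest to the highest quartile of Chga, the mean of Igfbp7 went from 0.93 to 1.95 UMIs per cell in virgin and from 0.49 to 1.27 in multipara. Sez6l had as its first partners the mitochondrial genes mt-Co1 (0.20 and 0.23), mt-Co2 (0.17 and 0.23) and mt-Co3 (0.16 and 0.22), and Defb1 had mt-Co2 (0.14 and 0.15), mt-Co3 (0.15 and 0.14) and mt-Co1 (0.17 and 0.13). Ins1 had correlations of -0.25 and -0.27 with Sez6l and of -0.16 and -0.14 with Defb1 in the same cells. At a fixed total of 10000 UMIs, genes other than insulin can rise together when the insulin share falls. A link to mitochondrial genes apart from that was not tested. The median mitochondrial share of deep β cells was 4.06% in virgin and 3.92% in multipara. For Marcks the top partners Peg3, Csnk1a1 and Stard10 reached no more than 0.09.

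Over 7 cell types in both libraries, 14 points, the genes with the most similar levels were found by Pearson correlation of log2(CPM + 1) among 5549 genes. Those of Defb1 were Hist1h2bc (0.96), Cd164 (0.95) and Chic1 (0.95), and those of Marcks were Zc3hav1 (0.98), Hnrnpf (0.97) and Kpna4 (0.97). Those of Igfbp7 were Eml1 (0.99), Zcchc14 (0.99) and Pcdh1 (0.98), and those of Sez6l were Frzb (0.90), Enho (0.90) and Nnat (0.87). The points come in pairs from the same cell type. Frzb, a secreted Wnt binding protein gene, stood at 79.8 and 65.6 CPM in β and 142 and 134 CPM in δ cells.

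Genes around the members in their pathways were compared in gated β cells where both libraries together held at least 10 UMIs. At that minimum 8.76% of 14426 genes were lower by 1.5-fold and 7.44% higher, and in deep β cells 11.2% of 13987 were lower and 3.53% higher, with a median of -0.11. Of the 7 MARCKS relatives and growth-cone proteins 6 were measured, and 3 were lower by 1.5-fold, Marcks included, with a median log2 ratio of -0.40 for the other 5, against -0.08 over all genes. The growth-cone genes Gap43 (69 and 19 UMIs, -1.70) and Basp1 (137 and 68 UMIs, -0.85) were those besides Marcks. Both were far higher in δ cells, with Gap43 at 182 and 178 CPM and Basp1 at 195 and 188 CPM there, and Basp1 was also at 583 and 972 CPM in macrophages. The level computed as above for RNA of other cells came to 1.15 of the 1.32 CPM of Gap43 in virgin β cells. In multipara it was 0.44 CPM against 0.41 measured. For Basp1 it exceeded the measured level, at 3.60 CPM against 2.63 and 5.47 CPM against 1.46. In deep β cells it was 145% and 536% of the measured Basp1 level, so it overstates what other cells brought. For Marcks the computed level was 4.93% and 7.69% of that measured in all β cells. The same 3 genes were lower in deep β cells, with Gap43 at -1.73 and Basp1 at -1.70, and the other 5 had a median of -0.45 there.

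Of 11 measured genes for protein kinase C forms and calmodulin, which act on the MARCKS protein, none was lower by 1.5-fold and Prkch, with 6 and 16 UMIs, was higher. In deep β cells Prkch had 4 and 4 UMIs, and none of the 10 genes measured there passed 1.5-fold in either direction, with a median of -0.15. In all β cells the median was -0.08, with Prkca at -0.22, Prkce at -0.30 and Calm2 at -0.21. None of 14 measured phospholipase C and PIP2 synthesis genes passed 1.5-fold in either direction, with a median of -0.03. Pip4k2a had the lowest value, at -0.56 (-0.82 to -0.30). Plcb3 (-0.47) and Plcg2 (-0.45) came next from 76 and 49 and from 73 and 48 UMIs, then Pip5k1b (-0.39), and Plcg1 stood at 0.18 (-0.02 to 0.39). In deep β cells 2 of 12 were lower by 1.5-fold, Pip4k2a at -0.62 (-0.88 to -0.36) and Plcb3 at -0.60 from 75 and 44 UMIs, with a median of -0.07.

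Of 15 genes of IGF binding proteins and the IGF axis 7 were measured, and for the 6 besides Igfbp7 the median was 0.47. The receptor gene Igf1r was at 44.3 CPM in virgin and 61.5 CPM in multipara (0.47, 0.39 to 0.55) and Igfals, whose product holds IGFs in a ternary complex, at 0.48 (0.37 to 0.58). Both ratios were within 1.5-fold. Igfbp3 (77 and 278 UMIs, 2.01) and Igfbp5 (229 and 352 UMIs, 0.78) were higher by more. Igfbp3 is abundant in endothelial cells (2401 and 4337 CPM), the level computed from other cells was 1.73 CPM against 1.48 measured in virgin and 8.45 against 5.95 in multipara β cells, and in deep β cells it had 41 and 44 UMIs. Igfbp5 was at 4.31 and 6.5 CPM in deep β cells, and the level computed from other cells was 4.10% and 1.52% of that. In deep β cells 7 genes were measured, Igfbp5 (0.59) was higher, and Igfbp7 and Igfbp4 (10 and 1 UMIs) were lower, with Igf1r and Igfals at 0.49 each and a median of 0.38 besides Igfbp7.

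Of 17 genes of the SEZ6 family, beta-secretases and their substrates 16 were in the files and 12 were measured, with a median of -0.10 for the 11 besides Sez6l. Sez6l2, the close relative of Sez6l, held 86.4 CPM in virgin and 84.1 CPM in multipara β cells, a log2 ratio of -0.04 (-0.10 to 0.02), and Sez6 only 6 and 2 UMIs. The secretase genes Bace2 (-0.25, -0.29 to -0.21) and Bace1 (-0.14, -0.31 to 0.02) were within 1.5-fold. Their substrate genes Tmem27, which encodes collectrin, stood at -0.47 (268 and 194 CPM), Aplp1 at -0.32 and App at -0.03. Nrg1 (16 and 3 UMIs) was past 1.5-fold lower, and Jag1 (12 and 24 UMIs) and Plxdc2 (4 and 16 UMIs) past it higher. In deep β cells Jag1 had 12 and 9 and Plxdc2 3 and 6 UMIs, Sez6l and Nrg1 (16 and 3 UMIs) were lower by 1.5-fold and none of the 11 genes measured was higher. Tmem27 stood at -0.46, Aplp1 at -0.30, Bace2 at -0.24, Bace1 at -0.15 and Sez6l2 at -0.02 there, with a median of -0.21 besides Sez6l.

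Defb1 was the sole beta-defensin gene measured in β cells. Of 42 such genes counted in the files 39 had no UMI in β cells of either library, Defb14 had 3 and 0 and Defb3 had 0 and 1. Of 13 other genes of antimicrobial and epithelial defence 3 were measured. Slpi had 202 UMIs in virgin and 1 in multipara, of which 179 were in 1 virgin cell. Lyz2, a marker of macrophages, had 64 and 424 UMIs in all β cells and 45 and 18 in deep β cells, and Pglyrp1 had 2 and 21 in all and 2 and 7 in deep β cells. Slpi and Lyz2 were the 2 measured in deep β cells, both lower. Of 6 genes for defensin receptors Tlr2 alone was measured, at -0.16 (-0.39 to 0.08).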

How the data were processed

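The deposited values were raw UMI counts, 1 matrix for each library. The submitters' processing notes name Cell Ranger 3.1.0, Seurat 3.0 and GRCm38 (mm10). The libraries held 94853806 UMIs in 5463 barcodes (virgin) and 82503776 in 5075 (multipara), so levels of a few CPM in small cell types rest on few UMIs. The filter of the study was applied, which keeps cells with between 200 and 6000 genes, below 60000 UMIs and below 10% mitochondrial UMIs. At or over 10% mitochondrial UMIs were 974 of 5463 virgin barcodes and 1550 of 5075 multipara barcodes, so the libraries differed in quality along with parity. Scrublet (scanpy 1.11.5) called 61 virgin (1.39%) and 44 multipara (1.30%) doublets, below prior rates of 3.51% and 2.70%, so doublets can remain.

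Endocrine cells had exactly 1 hormone at 5% of UMIs or more. Other cells had none, at least 5 UMIs and 2 genes of 1 marker list and at least 3 times the UMIs of every other list. UMIs were summed per library and type, divided by all UMIs (CPM), with exact Poisson intervals, exact conditional binomial intervals of ratios and Clopper-Pearson intervals of shares. With 1 library per group there was no test. Calculations used python 3.11.15, numpy 2.4.6, scipy 1.17.1, pandas 2.3.3, matplotlib 3.10.9, R 4.3.3 and, for a scaling alternative, edgeR 4.0.16. The ratio with its interval and the number of UMIs left by thinning were tested on simulated data, and the other calculations were not.

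The members, gene lists, markers and settings were chosen with earlier results of these data known. Named were the 4 genes, genes of the lists, the 3 genes most like each by cell type and over β cells, the 3 genes beyond either end in the order of ratios, and genes that split β cells. The thinning depth of 1500 UMIs came from the 10th percentile of the shallower β cells, 1755.8 UMIs. Deep β cells and thinning to 10000 UMIs were added after the data were seen. Other alternatives changed scaling, gates, cell filters, doublets, weights and count minimums. Locations came from GENCODE M21.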

Additional observations from a re-analysis of the deposited data

Results flagged for a closer look

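In some cell types a gene had a higher sum in the multipara library while it was lower there in β cells. With 1 library per group the difference between cell types was not tested over animals, and the lower β cell ratio is what chose the genes. Defb1 in δ cells had a log2 ratio of 0.25 (0.01 to 0.48) against -0.95 in β cells, and of these 4 cases it was the one whose counting interval lay clear of 0. In δ cells of at least 5000 UMIs with no stromal marker UMI it was 0.14 (-0.14 to 0.43), which includes 0, and in PP cells of that kind Defb1 turned to -0.44 (-1.12 to 0.24). Defb1 in PP cells was at 0.0235 (-0.55 to 0.60), Marcks in PP cells at 0.14 (-0.16 to 0.45) and Sez6l in endothelial cells at 0.53 (-0.31 to 1.40), each with an interval that included 0.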

How the results depend on the processing

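With 1 library per group, neither the spread between mice nor any batch can be told apart from parity. No paired analysis was possible because each group is 1 library. In gated β cells the log2 ratios of Defb1 (-0.95), Marcks (-0.70) and Sez6l (-0.61) stayed below 0 in every alternative run. Igfbp7 (-0.51) turned to 0.35 with each cell weighted equally, 0.50 thinned to 1500 UMIs and 0.50 with the hormone gate at 2%. Without cells that held a stromal UMI those 3 settings gave -0.67, -0.78 and -0.69. It was -0.45 with TMM scaling, -0.44 with median-of-ratios scaling, -0.70 in cells of 20000 to 40000 UMIs, -0.67 with the gate at 10%, -0.65 with no cell filter, -0.62 with mitochondrial shares under 5%, -0.72 in deep β cells, both summed and with each cell weighted equally, -0.72 thinned to 10000 and -0.68 with no stromal UMI. Other values outside their counting interval were Defb1 at -0.88 with TMM, -0.88 with median-of-ratios scaling, -1.06 weighted equally and -0.83 at 20000 to 40000 UMIs, Marcks at -0.43 weighted equally, -0.35 thinned to 1500 and -0.52 with the gate at 2%, and Sez6l at -0.82 thinned to 1500, -0.47 at 20000 to 40000 UMIs and -0.70 with mitochondrial shares under 5%. For these 3 genes the cause was not tested, and their 11, 12 and 12 other alternatives lay within -0.98 to -0.90, -0.76 to -0.63 and -0.68 to -0.54. Shares of cells with a UMI differ with depth by construction. Multipara minus virgin, they were, at 1500, all and 10000 UMIs, -7.73, -23.9 and -21.1 percentage points for Defb1, -2.57, -16.3 and -11.6 for Marcks, -5.88, -14.8 and -16.8 for Igfbp7 and -4.36, -16.9 and -12.7 for Sez6l. With a minimum of 10 UMIs in place of 50 CPM, 8.76% of genes were lower and 7.44% higher by 1.5-fold, low counts being included. TMM scaling gave 0.721% lower and 1.44% higher, against 1.04% and 1.12%. Of 12 correlations between members, 8 were above 0 at 1500 UMIs.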
